A study of Mus musculus with 2 samples.

Results

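The genes described here encode the subcortical maternal complex of the mouse oocyte (Nlrp5, Ooep, Tle6, Khdc3), the lattice protein Padi6 and the oocyte NLRP proteins Nlrp2, Nlrp4f and Nlrp14. They are 8 of the 20658 genes that were paired with a probe, and were listed by name, by a rule with no threshold on a measured value. Each was matched to 1 probe with 1 spot on each array. Gene expression was measured on 2 single-colour oligonucleotide arrays, each hybridised with dye-labelled RNA from ovaries of 2-week-old mice. The ovaries had been cut lengthwise into symmetrical pieces and kept in culture for 3 days. 1 array carried RNA from pieces cultured with TKR agonists, namely [Sar9,Met(O2)11]-SP for TACR1, GR-64349 for TACR2 and senktide, a succinylated fragment of SP, for TACR3. The other carried RNA from pieces cultured with TKR antagonists, namely a blocker of TACR1 together with GR-94800 for TACR2 and SB218795 for TACR3. Each ligand was used at 1 μM. TACR1, TACR2 and TACR3 are the tachykinin receptors (TKRs), and the comparison asked which transcripts differed between ovaries with activated and blocked receptors. Neither array came from untreated tissue, and the strain and the number of ovaries behind each RNA are not given in the sources used here. With 1 array per group no test could be made, so every difference below is a difference between a pair of arrays.

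The subcortical maternal complex is a protein assembly beneath the membrane of growing and mature oocytes, built from transcripts that accumulate while the follicle grows. Its genes are maternal-effect genes: embryos of mothers that lack Nlrp5 (MATER), Ooep (FLOPED) or Tle6 arrest during early cleavage, and loss of Khdc3 (FILIA) impairs chromosome segregation in the cleaving embryo. PADI6, a member of the peptidylarginine deiminase family, is needed for the cytoplasmic lattices of the oocyte and for early cleavage. NLRP proteins of the oocyte share the NACHT and leucine-rich repeat domains of the inflammasome receptors but are known for roles in oocytes and embryos.

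Many oocyte genes are known targets of NOBOX, a homeobox factor, and FIGLA, a helix-loop-helix factor that binds E-boxes. The promoter windows of RefSeq (assembly GRCm38.p6, 250 bases before to 50 after each gene's start) held 9 windows for 7 of the 8 genes, all except Nlrp14. These windows were searched on both strands for the NOBOX element TAATTG, for the related core TAATTA and for the E-box CANNTG. The sequences of the 3 genes with a homeobox match are given here, because they are the windows among these genes that hold one. They are written 5′ to 3′ on the gene's own strand, with the match in capitals. For Nlrp5 (chr7:23385639-23385888, plus strand) the match is TAATTA. The other Nlrp5 window (chr7:23403852-23404151) held neither TAATTA nor TAATTG. For Ooep (chr9:78378589-78378838, minus strand) and Padi6 (chr4:140742630-140742893, minus strand) it is TAATTG, read on the other strand as CAATTA. The Padi6 window runs past base 250, the last before the gene's start, to the end of its match.
Nlrp5: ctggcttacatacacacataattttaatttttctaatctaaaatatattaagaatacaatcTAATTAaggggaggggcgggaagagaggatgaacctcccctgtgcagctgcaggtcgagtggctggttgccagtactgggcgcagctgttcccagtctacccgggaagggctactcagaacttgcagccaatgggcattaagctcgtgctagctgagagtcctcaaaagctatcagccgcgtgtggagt
Ooep: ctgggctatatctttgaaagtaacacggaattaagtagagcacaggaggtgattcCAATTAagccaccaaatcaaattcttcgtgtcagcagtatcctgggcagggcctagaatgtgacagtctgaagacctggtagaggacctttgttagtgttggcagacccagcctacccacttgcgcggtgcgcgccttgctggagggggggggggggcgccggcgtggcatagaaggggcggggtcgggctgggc
Padi6: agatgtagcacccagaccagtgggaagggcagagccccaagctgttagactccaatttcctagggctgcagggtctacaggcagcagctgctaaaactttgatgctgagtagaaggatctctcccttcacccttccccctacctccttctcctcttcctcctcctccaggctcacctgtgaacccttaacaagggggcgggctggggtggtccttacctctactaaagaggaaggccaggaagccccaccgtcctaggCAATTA
Of all 32851 windows, 8% held TAATTG, against 2 of the 9 windows of these genes. TAATTA was in 5.29% of all windows and in 1 of the 9. E-boxes were in 8 of the 9 windows, against 72.3% of all, and ranged from 0 in Nlrp2 to 5 in Khdc3. These letter matches are descriptions of the sequence and no measure of binding. Nobox itself, named here after its values were seen, had signals of 5729 with the agonists and 4269 with the antagonists, and a log2 ratio of 0.18 on the scale explained next.

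A signal is the processed intensity of a spot after background correction by the image software, in signal units, with the software's own error. A log2 ratio is the log2 agonist signal less the log2 antagonist signal once each was scaled to the 75th percentile of its array, 672 signal units with the agonists and 569 with the antagonists. Of the spots that are not controls, 65.4% and 61.6% respectively were well above background by the software's criterion and 0 were saturated on either array. For the 15258 genes that passed this criterion on both arrays, log2 ratios had a median of -0.10 and quartiles of -0.27 and 0.15, so a log2 ratio of 0 lies above the middle of the genes.

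All 8 genes were well above background on both arrays, and none of their spots was marked as an outlier. Past 2-fold in favour of the agonists lay 0 of the 8, against 4.01% of all genes, and past 2-fold in favour of the antagonists 0 of the 8, against 0.577%. At 1.5-fold the count of these genes was 0 in each direction, against 9.26% of all genes higher and 4.28% lower. Their log2 ratios ran from -0.20 (Khdc3) to 0.32 (Nlrp14) with a median of 0.15. 6 of the 8 lay above 0, where 37.7% of all genes lay, and the same number lay above the median of all genes. With so few genes, the counts of 0 past 2-fold and 1.5-fold are close to the shares of all genes past them. They are no result about the 8. Farther from 0 than the error of their own pair of spots were 3 of the 8, and from 3 to 6 under other scalings. Nlrp5, Ooep, Nlrp2, Nlrp4f and Nlrp14 lay above the median of all genes by more than this error. Padi6, Tle6 and Khdc3 lay closer to that median than their error, and so did Ooep under another background correction. With loess normalization Padi6 lay above that median by 0.22, more than its error of 0.20.

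**Figure D1:**
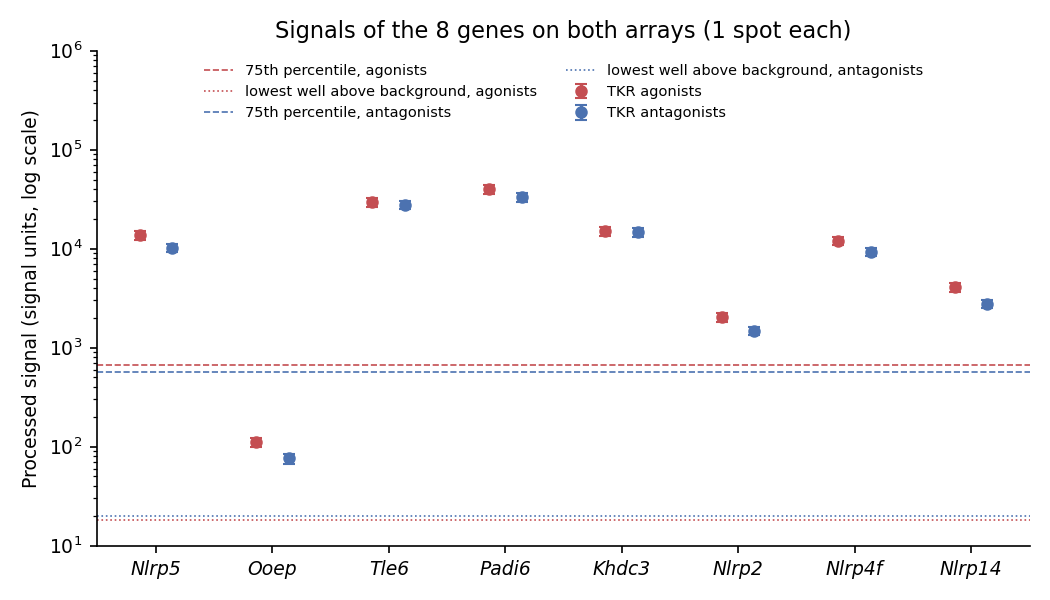
Processed signal of the 8 genes on a log axis, with the TKR agonist array in red and the TKR antagonist array in blue; bars are the image software's error of 1 spot, dashed lines the 75th percentile of each array and dotted lines the lowest signal well above background. 7 genes lie above the 75th percentile on both arrays, and Ooep, with signals of 111 and 76.3, lies between the lines.

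Among the genes of the core complex, Nlrp5, which encodes its NLRP subunit MATER, had a signal of 13653 ± 1365 (software error) with the agonists and 10249 ± 1025 with the antagonists. These values lay at percentiles 95.9 and 95.2 of the probes on each array. The unscaled signals differed by 1.33-fold, and the log2 ratio after scaling was 0.17 ± 0.20 (error of the 2 spots). The agonist array was the higher of the pair, by less than the error after this scaling and by more after quantile normalization, where the log2 ratio was 0.30. Of all genes, 76.6% had a lower log2 ratio than Nlrp5.

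Ooep, which encodes the KH-domain subunit FLOPED, was the dimmest of the 8 probes. Its signals were 111 ± 11.6 with the agonists and 76.3 ± 8.65 with the antagonists, at percentiles 57.8 and 55.6. The spot's median pixel stood at 164 over a local background of 35 for the agonists and at 126.5 over 42 for the antagonists. Ooep was therefore measured above background on both arrays, at 6.10 and 3.83 times the lowest signal well above background. The log2 ratio was 0.29 ± 0.22, farther from 0 than its error. Under the normexp background correction it was 0.09, within that error. A probe's brightness depends on its sequence as well as on the transcript, so the low rank of the Ooep probe does not give the abundance of Ooep relative to its partners.

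Tle6 encodes the complex's member of the transducin-like enhancer family. It gave 29419 ± 2942 signal units with the agonists and 27712 ± 2771 with the antagonists, at percentiles 97.5 and 97.6, and a log2 ratio of -0.16 ± 0.20. Khdc3, the KH-domain protein FILIA, gave 15064 ± 1506 and 14613 ± 1461, at percentiles 96.1 and 96.2, and a log2 ratio of -0.20 ± 0.20. In both genes the unscaled signal was slightly higher on the agonist array, by 1.06-fold and 1.03-fold, and the sign turned with the scaling. They were the only members below 0 after scaling, and both changed sign without scaling and with spike-in scaling.

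Padi6, which encodes the lattice protein, was the brightest of the 8 probes, with 40063 ± 4006 with the agonists and 33215 ± 3321 with the antagonists. It stood at percentiles 98.0 and 97.9 of the arrays. The log2 ratio was 0.03 ± 0.20, so the scaled values of the arrays were nearly equal, although 65.3% of all genes had a lower ratio. When the arrays were scaled on their medians the log2 ratio became -0.03. Nlrp5, Ooep, Tle6, Khdc3 and Padi6 together had a median log2 ratio of 0.03, with 3 of 5 above 0, beside 37.7% of all genes.

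Of the NLRP genes beside Nlrp5, Nlrp2, a maternal-effect gene of the early embryo, had signals of 2027 ± 203 with the agonists and 1481 ± 148 with the antagonists, at percentiles 85.5 and 83.9. Its log2 ratio was 0.21 ± 0.20. Nlrp4f, whose product has been found with the complex, gave 12045 ± 1205 and 9301 ± 930, at percentiles 95.5 and 94.9, and a log2 ratio of 0.13 ± 0.20. Both genes were higher on the agonist array, by 1.37-fold and 1.30-fold before scaling. Whether they passed their error turned with the scaling: Nlrp2 did so here and not with scaling on the median, where it was 0.16, and Nlrp4f did so with quantile normalization, where it was 0.27.

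Nlrp14, a germ-cell NLRP gene with roles in both sexes, had 4099 ± 410 signal units with the agonists and 2769 ± 277 with the antagonists, at percentiles 90.5 and 88.6. The unscaled signals differed by 1.48-fold and the log2 ratio was 0.32 ± 0.20, the highest of the 8 genes. Of all genes, 83.8% had a lower log2 ratio, so Nlrp14 lay in the upper part of the distribution and below the 1.5-fold mark. The 4 NLRP members, Nlrp5, Nlrp2, Nlrp4f and Nlrp14, were all above 0, beside 37.7% of all genes. They ran from 0.13 to 0.32 with a median of 0.19. The other 4 members had a median of -0.06, with 2 above 0. This difference between NLRP and other members was noticed in the values and was not tested.

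The order of the log2 ratios was Nlrp14, Ooep, Nlrp2, Nlrp5, Nlrp4f, Padi6, Tle6 and Khdc3, from high to low. No gene differed from its neighbour in this order by more than the error of their difference. Of the 28 pairs of genes, 10 differed by more than that error and 0 by more than 2 errors. The widest pair was Nlrp14 against Khdc3, 0.52 apart in log2 ratio with an error of 0.29. The software's error of a log2 ratio was nearly constant over the 8 genes, from 0.204 to 0.223. Counts past this error are therefore close to counts past a fixed difference. That error may be set beside the spread seen on these arrays. For the 277 probes with at least 8 kept spots, all well above background, the SD of the log2 ratio between spots had a median of 0.07 and a 95th percentile of 0.25. Different probes of 1 gene differed in log2 ratio by a median of 0.14 over 3781 genes and of 0.09 over the 1246 genes in which both probes were at or above the 75th percentile. None of these errors covers the spread between ovaries.

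The log2 ratio of all genes moved with their brightness. It had a median of -0.17 among the 1526 brightest genes and of 0.05 in the second dimmest class, when genes were cut into 10 classes of equal size by mean signal. Padi6, Tle6, Khdc3, Nlrp5 and Nlrp4f were in the brightest class, whose middle 50% ran from -0.29 to -0.05. Within this class Tle6 and Khdc3 lay inside that range, while Nlrp5, Nlrp4f and Padi6 lay above it by their ratios of 0.17, 0.13 and 0.03. Nlrp14 and Nlrp2 also lay above the middle 50% of genes of their own brightness, and Ooep lay inside it. Of the 8 genes, 7 were above the median of their class, and Khdc3 was just below it.

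**Figure D2:**
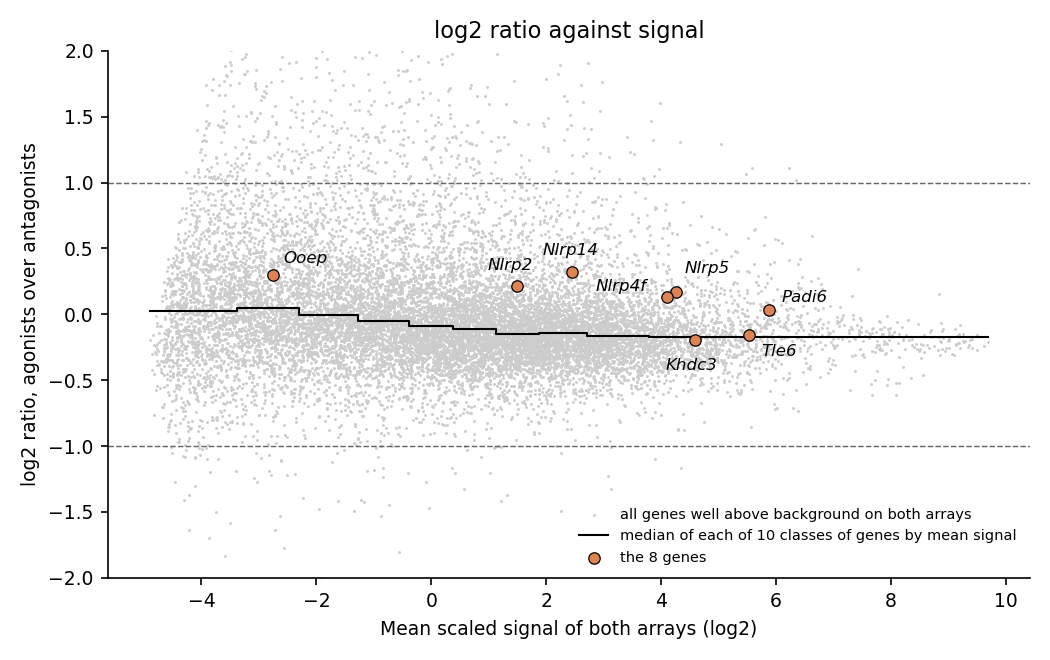
The log2 ratio of agonists over antagonists against the mean scaled signal of both arrays (log2), with 1 grey point per gene well above background on both arrays, the 8 genes in orange, the median of each of 10 classes of genes by signal as a black line and dashed lines at 2-fold; 113 genes beyond a log2 ratio of 2 in either direction are outside the axis. Nlrp14, Nlrp2, Nlrp5, Nlrp4f, Padi6 and Ooep sit above the line, and Tle6 and Khdc3 sit close to it, at 0.019 and -0.024 from it.

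The 8 genes were next set beside other transcripts of the oocyte. Zp3, a protein of the zona pellucida, had signals of 20115 and 18563 and a log2 ratio of -0.13. Gdf9, the oocyte growth factor that acts on granulosa cells, had signals of 95396 and 85421 and a log2 ratio of -0.08. The 20 oocyte reference genes with a probe were all well above background on both arrays, so oocyte transcripts were present in both RNAs. Their median log2 ratio was 0.02, with 11 above 0 and 18 above the median of all genes. Lying above the median of all genes was thus not particular to the 8 genes. Their log2 ratios ran from -0.15 (Npm2, a histone chaperone of the oocyte) to 0.59 (Figla), and Tle6 and Khdc3 lay just below this range while the other 6 genes lay inside it.

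The other oocyte NLRP genes listed belong to the Nlrp4 group, which also holds Nlrp4f, and to the Nlrp9 group. Of the 9 genes listed, 8 had a probe, all well above background on both arrays, and Nlrp4d was not matched. Their median log2 ratio was 0.18, with 7 of 8 above 0 and none past 2-fold. Nlrp4b was the highest at 0.32, with signals of 5905 (agonists) and 4012 (antagonists). Nlrp9b followed at 0.31 and Nlrp4c at 0.24, then Nlrp4a at 0.19, Nlrp9a at 0.17, Nlrp4e at 0.10 and Nlrp9c at 0.08. Nlrp4g alone was below 0, at -0.31 ± 0.36, and its signals of 28.6 and 29.9 were close to the lowest that counted as above background. Above 0 were 37.7% of all genes and 11 of the 20 oocyte reference genes. Above the median of all genes were 7 of these 8 genes and 18 of the 20 oocyte reference genes. These relatives are similar in sequence and the probe sequences were not analysed here, so signal shared between them was not tested.

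Proteins reported to act with the complex lay close to the median of all genes. Zbed3, which has been found with the complex, had a log2 ratio of -0.09, and Cfl1, the actin-severing protein cofilin, had -0.09. Uhrf1, a cofactor of maintenance DNA methylation, had -0.21 at its brighter probe and 0.38 at a much dimmer one. Dnmt1, the maintenance methyltransferase, had -0.02. At the brighter probes 0 of the 4 were above 0, with a median of -0.09 beside -0.10 for all genes. Their sign rested on the scaling: 4 of 4 were above 0 without scaling, where their median was 0.15.

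Relatives of the members by protein family differed between families. The KH-domain relatives of Ooep and Khdc3 were all above 0, with 0.61 for Khdc1a, 0.29 for Khdc1c, 0.26 for Khdc1b and 0.08 for Dppa5a, a gene of pluripotent and germ cells. Khdc1a, with the highest log2 ratio of these relatives, had signals of 3777 and 2094. Probe sequences of the Khdc1 genes, which are close relatives, were not analysed either, so these values may not be independent of each other. The Tle relatives of Tle6 had a median log2 ratio of -0.03 at their brightest probes. They ran from -0.08 (Tle2) to 0.15 (Tle3), with Tle1 at -0.03, Tle4 at -0.00 and Tle5 at -0.06. A dimmer Tle2 probe had 0.37. The sign of the Tle median turned in 7 of 13 alternatives, to 0.09 with quantile normalization for example. Of the relatives of Padi6, Padi1 had -0.06, Padi2 had 0.06 and Padi4 had 0.06, at signals far lower than that of Padi6. Another Padi2 probe, with signals of 62.6 (agonists) and 42.1 (antagonists), had 0.33. Padi3 was not well above background on either array.

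**Figure D3:**
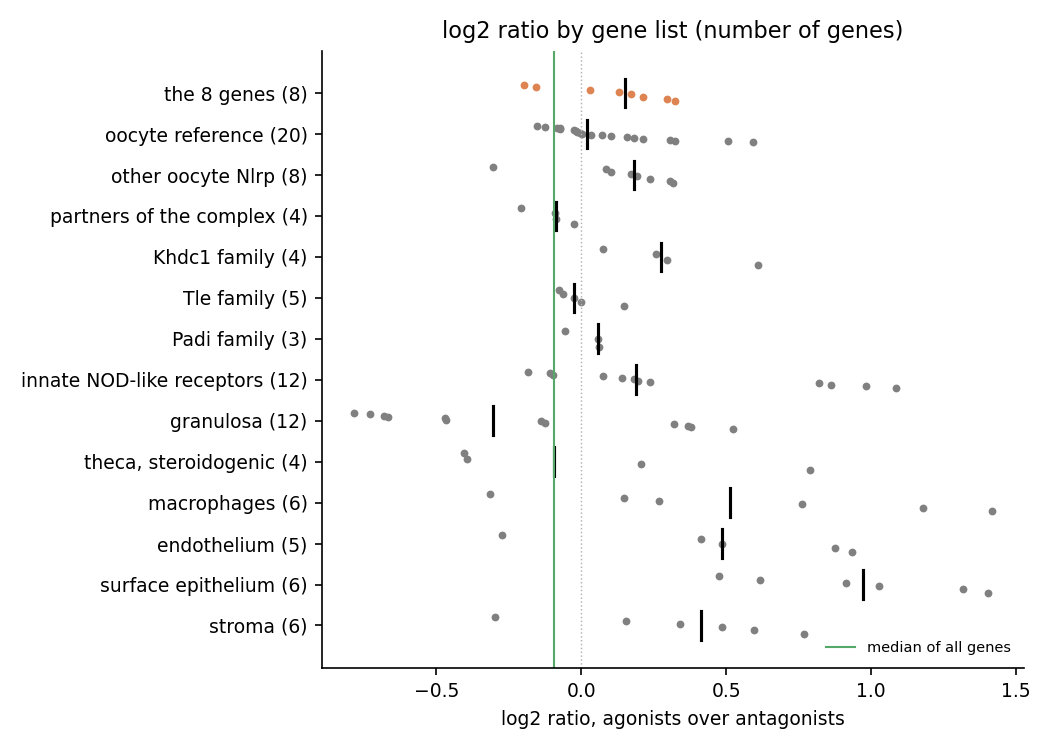
The log2 ratio of agonists over antagonists for each listed gene measured above background on both arrays, 1 point per gene, with the number of genes in brackets, the list's median as a black bar and the median of all genes, -0.10, as a green line. The 8 genes, in orange, lie between -0.20 and 0.32, a wider range than those of the partner, Tle and Padi lists. Every other list shown has a wider range than the 8 genes. These include the oocyte reference genes (-0.15 to 0.59), the other oocyte Nlrp genes (-0.31 to 0.32) and the Khdc1 family (0.08 to 0.61).

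The arrays measured whole ovary pieces, so fewer oocytes and less of a transcript per oocyte cannot be told apart. Lists of other ovarian cell types also differed between the arrays, and their counts above 0 stand beside 37.7% of all genes. The ovarian surface epithelium was above 0 in 6 of 6 genes, from 0.48 (Lgr5) to 1.40 (Krt19), and its summed signals before scaling were 24069 (agonists) and 9719 (antagonists). The stroma was above 0 in 5 of 6 genes, from -0.30 (Lum) to 0.77 (Tcf21), with summed signals of 247683 and 176332. Endothelium was above 0 in 4 of 5 genes, from -0.27 (Kdr) to 0.93 (Emcn), with summed signals of 40653 and 30827, while its marker Tek was well above background with the agonists only. Macrophages were above 0 in 5 of 6 genes, from -0.31 (Itgam) to 1.42 (Adgre1), with summed signals of 14104 and 11799. These macrophage sums stood in about the proportion of the arrays' 75th percentiles, 672 and 569. Itgam, the brightest of the 6, gave 6129 and 6445 of them. A sum is set mainly by its brightest probes, so it does not show whether the dimmer genes differed. The macrophage median log2 ratio of 0.51 changed sign in 1 of 13 alternatives. It was -0.08 over the 2 genes left when only genes at or above the 75th percentile were kept.

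The granulosa cells, which surround the oocyte, were above 0 in 4 of 12 genes, with a median of -0.30, from -0.78 (Fst) to 0.52 (Nr0b1), and summed signals of 113655 and 110501. Theca and steroidogenic genes had a median of -0.10 over 4 genes, from -0.41 (Cyp17a1) to 0.79 (Cyp11a1), and Lhcgr was not well above background on either array. This median equalled that of all genes, and its sign turned in 7 of 13 alternatives, from -0.31 to 0.21. For the oocyte reference genes the summed signals were 292334 and 251045. The part of these differences between cell type lists in the log2 ratios of the 8 genes was not tested. The median log2 ratio was 0.02 for the oocyte reference genes and 0.15 for the 8 genes, and the difference was not tested.

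**Figure D4:**
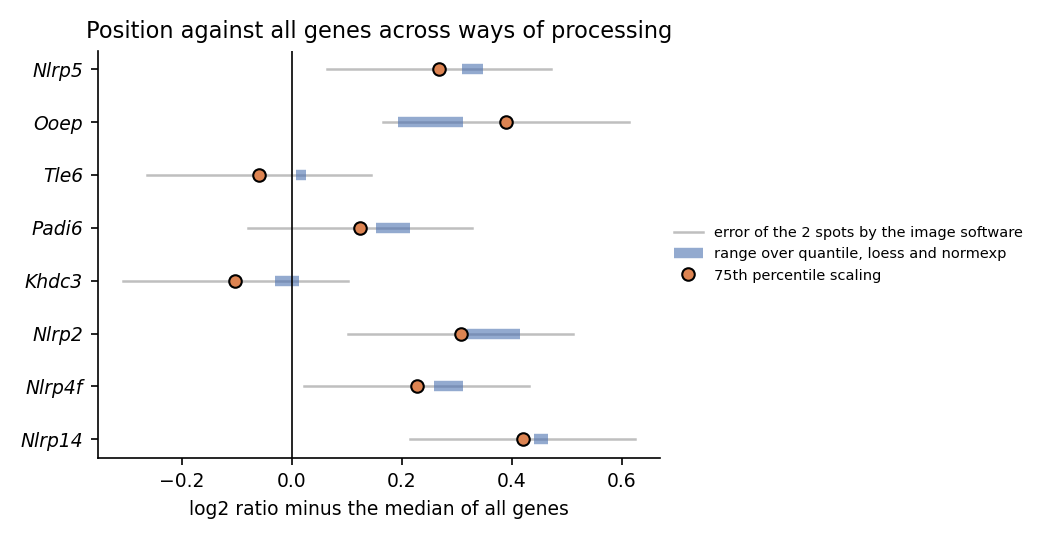
The log2 ratio of each of the 8 genes minus the median of all genes (horizontal axis), as reported after 75th percentile scaling (orange point), as a range over quantile normalization, loess and normexp (blue bar) and with the software's error of the 2 spots (grey line). The points and bars of Nlrp5, Ooep, Padi6, Nlrp2, Nlrp4f and Nlrp14 are to the right of 0, the error line of Padi6 crosses 0, and Tle6 and Khdc3 have values on both sides.

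A scaling by 1 constant per array moves all genes together and leaves the distance of a gene from the median of all genes as it was. This distance could therefore move mainly under quantile normalization, loess and normexp. Nlrp14 lay 0.42 above the median of all genes as reported and between 0.44 and 0.47 under these 3. Ooep lay 0.39 above it and between 0.19 and 0.31, the lower value with normexp. Nlrp2 ran from 0.32 to 0.41, Nlrp5 from 0.31 to 0.35, Nlrp4f from 0.26 to 0.31 and Padi6 from 0.15 to 0.22. Tle6, at -0.06 as reported, ran from 0.01 to 0.03, and Khdc3, at -0.10 as reported, ran from -0.03 to 0.01. Under these 3, Tle6 was above the median of all genes in 3 and Khdc3 in 1. The remaining settings nearly repeat the reported distance, so they do not show on which side of the median Tle6 and Khdc3 lie.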

How the data were processed

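The authors had the arrays (Agilent, 1 colour, designed on mm9) read with Agilent Feature Extraction 10.10.1.1 and deposited, for every spot, a linear processed intensity (background-corrected by the software, not scaled between arrays) and other marks, which flag saturated spots, outlier spots and spots well above background. A table of summary intensities, also deposited by the authors, equals the processed signal multiplied by 1.99 (agonists) or 2.19 (antagonists) to a relative deviation of 4.97e-10, with medians of 129 and 115. Groups were taken from the sample labels.

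From these files, control spots and outlier spots were left out, the signal was taken as log2 minus the 75th percentile of its array, and spots of the same probe were averaged, giving 55674 probes. A probe counted as well above background if more than 50% of its spots did. Names came from RefSeq accessions matched to the GRCm38.p6 gene table (27230 probes with a symbol). No probe coordinates are given, since the array was designed on another build. A gene was represented by its probe with the highest mean signal, and 16282 genes were well above background on at least 1 array. A gene measured on 1 array only received a lower bound.

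The genes and lists were chosen with earlier results of these data known. Named genes are the 8 members, all genes of the NLRP, partner, Khdc1, Tle and Padi lists, Zp3, Gdf9, and from any other list the genes with the highest and the lowest log2 ratio. Named outside this rule are Nobox, Tek, Lhcgr, Nlrp12, Nlrc4, Naip6 and Nlrp1b. With 1 array per group no test or p-value was computed, and the number of arrays limits the precision. Alternatives were other scalings (none, median, detected probes, quantile, loess with span 0.3, 8 spike-in probes), the deposited summary values, normexp (offset 50), medians over spots, means over probes, other filters and other folds. Python 3.11.15, numpy 2.4.6, pandas 2.3.3, R 4.3.3 and limma 3.58.1 were used, and the calculation was tested on simulated data.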

Additional observations from a re-analysis of the deposited data

How the results depend on the processing

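Over 13 alternatives the median log2 ratio of the 8 genes stayed above 0, from 0.10 with scaling on the median to 0.40. It was 0.39 without scaling and 0.40 with spike-in scaling, settings that shifted all genes alike, by 0.24 and 0.25. The authors' summary values shifted all genes by 0.10. The counts of genes past 2-fold were 0 in each direction under every alternative run, as they were at 4-fold and 1.5-fold. Each of the 8 genes has 1 probe with 1 spot, so other summaries of spots and probes, and the stricter rule for signal above background, could not change their values. A sign opposite to the reported one was seen 5 times: Tle6 and Khdc3 without scaling (0.09 and 0.04) and with spike-in scaling (0.09 and 0.05), and Padi6 with scaling on the median (-0.03). Of 169 medians of the 13 other lists, 21 had the opposite sign, 7 of them in the Tle list and 7 in the theca list. The cause of the shift between scalings was not tested. No paired analysis was possible because only 1 array was made per condition and no result came from a test. For Ooep, the dimmest of the 8, the normexp background correction took the log2 ratio from 0.29 to 0.09.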

Other observations

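NOD-like receptors of innate immunity share domains with the oocyte NLRP proteins but act in defence against microbes. Of the 17 listed, 16 had a probe and 12 were well above background on both arrays. Their median log2 ratio was 0.19, with 9 of 12 above 0. Naip2, a sensor of bacterial secretion proteins, was the highest at 1.09 ± 0.33, from signals of 67.0 with the agonists and 26.7 with the antagonists. The antagonist signal was close to 19.9, the lowest that counted as well above background on that array. Naip5, a sensor of flagellin, was the lowest at -0.19, from signals of 80544 and 77471. The Naip genes are close relatives and their probe sequences were not analysed here, so whether this very bright probe reads Naip5 alone was not tested. Nlrp12, Nlrc4 and Naip6 were well above background with the agonists only and Nlrp1b on neither array, so with lower bounds included the median over 15 genes was 0.24. Nlrp12, Nlrc4, Naip6 and Nlrp1b were named after their values were seen.

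Where a gene had more than 1 probe, the dimmer of its 2 brightest probes had the higher log2 ratio in 54.7% of 3781 genes, and in 61.6% of the 1153 genes whose probes were at least 8-fold apart in signal. The median of the dimmer minus the brighter probe was 0.07 in the latter. In the Nlrp, partner, Tle and Padi relatives of the 8 genes, the dimmer probe was the higher in 9 of 12 genes, for example 0.67 against 0.31 in Nlrp9b, 0.48 against 0.24 in Nlrp4c and 0.37 against -0.08 in Tle2. The 8 genes have 1 probe each, so no such comparison can be made for them.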
